A study of Mus musculus with 14 samples.

Results

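The first transcriptional response of wild-type mouse lymph node to ionizing radiation (IR) was read from the 2 arrays hybridised with RNA taken 30 min after exposure, set against 3 arrays of untreated tissue. These 5 of the 14 arrays of the study are those titled Atm+/+ (WT) with these 2 states. The other arrays, used here only beside named results, are WT at 120 min (2 arrays) and tissue lacking Atm (Atm-/-, KO) untreated (3), at 30 min (2) and at 120 min (2). Each is a 1-colour Affymetrix array with 12422 probe sets besides its controls. The radiation dose, the strain, the age of the animals and the construction of the Atm allele are not stated in the material used here. No label says that replicates came from separate animals, so a p-value reflects only how these samples vary, which may be technical.

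Atm is the kinase that double-strand DNA breaks activate within minutes. It phosphorylates p53, the checkpoint kinases and histone H2AX, and through NEMO it also leads to the release of the transcription factor NF-kB from its inhibitors in the cytoplasm. Radiation also acts on growth factor receptors and the MAP kinases, which switch on immediate-early genes through factors already present in the cell, with no new protein synthesis. Immediate-early mRNAs are short-lived, and several of them encode the proteins that end the response, such as phosphatases of MAP kinases, mRNA decay factors and the NF-kB inhibitor itself. Lymphocytes, which make up most of a lymph node, are among the most radiosensitive cells of the body.

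The 8 genes that rose at 30 min were Fos, Egr1, Ier2, Ier3, Dusp1, Zfp36, Nfkbia and Cxcl1. The 250 bases before the start are shown for the 6 of them that the RefSeq promoter table of build GRCm38.p6 holds. Some elements that regulate such genes lie close to the start, and any that lie farther upstream fall outside this window. Fos encodes a transcription factor subunit, Dusp1 a phosphatase and Zfp36 an mRNA decay factor, while Ier3, Nfkbia and Cxcl1 are known targets of NF-kB. Capitals mark the core of the cAMP response element (TGACGT), a kappaB site (GGANTTTCC) and the CArG box bound by serum response factor, on either strand.
Fos: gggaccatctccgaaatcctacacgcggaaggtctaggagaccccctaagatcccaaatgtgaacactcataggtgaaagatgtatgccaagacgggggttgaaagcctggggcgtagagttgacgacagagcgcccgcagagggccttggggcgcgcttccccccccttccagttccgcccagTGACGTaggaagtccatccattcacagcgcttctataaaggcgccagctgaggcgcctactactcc
Dusp1: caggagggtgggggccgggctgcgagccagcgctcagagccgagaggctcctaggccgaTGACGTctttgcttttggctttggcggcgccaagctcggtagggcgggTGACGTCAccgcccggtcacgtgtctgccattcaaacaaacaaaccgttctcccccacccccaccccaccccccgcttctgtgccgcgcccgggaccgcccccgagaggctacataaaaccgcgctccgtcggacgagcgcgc
Zfp36: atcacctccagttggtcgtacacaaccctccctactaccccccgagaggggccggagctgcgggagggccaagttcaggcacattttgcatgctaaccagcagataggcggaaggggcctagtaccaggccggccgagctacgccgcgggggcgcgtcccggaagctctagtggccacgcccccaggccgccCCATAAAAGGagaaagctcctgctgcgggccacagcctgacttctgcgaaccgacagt
Ier3: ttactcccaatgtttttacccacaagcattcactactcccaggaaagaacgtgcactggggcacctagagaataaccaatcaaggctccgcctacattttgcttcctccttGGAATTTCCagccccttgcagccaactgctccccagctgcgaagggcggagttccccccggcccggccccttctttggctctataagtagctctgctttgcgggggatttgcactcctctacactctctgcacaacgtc
Nfkbia: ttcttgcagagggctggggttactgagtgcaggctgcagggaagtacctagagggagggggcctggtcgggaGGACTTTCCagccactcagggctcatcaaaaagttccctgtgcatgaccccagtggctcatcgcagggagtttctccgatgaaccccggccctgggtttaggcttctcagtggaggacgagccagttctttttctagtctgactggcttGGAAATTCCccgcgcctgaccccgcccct
Cxcl1: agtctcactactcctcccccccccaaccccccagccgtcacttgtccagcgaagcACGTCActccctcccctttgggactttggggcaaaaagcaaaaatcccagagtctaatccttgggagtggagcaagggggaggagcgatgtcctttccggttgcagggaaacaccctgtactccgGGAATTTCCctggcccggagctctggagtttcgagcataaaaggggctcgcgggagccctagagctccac

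The sequences are read 5′ to 3′ along each gene's own strand. They lie at chr12:85473640-85473889 on the plus strand, chr17:26508473-26508722 on the minus strand, chr7:28379229-28379478 on the minus strand, chr17:35821463-35821712 on the plus strand, chr12:55492648-55492897 on the minus strand and chr5:90890995-90891244 on the plus strand. The kappaB letters were present in Ier3 (1 match), Nfkbia (2) and Cxcl1 (1), whereas 1.07% of the 32851 promoters of the table held them in the same 250 bases. TGACGT was present in Fos (1 match), in Dusp1 (3, of which 2 overlap as the palindromic element) and in Cxcl1 (1), against 6.47% of all promoters. Zfp36 held 1 CArG box, found in 1.47% of promoters, and 1 match to GCGNGGGCG, the letters bound by Egr1 (4.7% of promoters). The AP-1 letters TGANTCA, present in 6.75% of promoters, were in 0 of these 6 windows. The motifs were chosen with these promoters in view. A match is not a shown binding site, and a missing match says only that the letters are not in this window.

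The response was narrow. Of 8938 probe sets bright enough to be tested, 9 probe sets of 8 genes were called higher (0.101%) and 0 were called lower (0%), where called means an adjusted p under 0.05 by limma with Benjamini-Hochberg adjustment over all tested probe sets. At an unadjusted p under 0.05 by limma, 224 were higher (2.51%) and 225 lower (2.52%). With no change at all, a share of about 0.05 would pass this limit, divided evenly by direction, and these counts are close to that. Both irradiated arrays lay above all 3 untreated ones for 879 probe sets (9.83%) and below all 3 for 883 (9.88%), as normalized. With so few arrays, a random order would give shares of about this size. Genes named below without a call are therefore not shown to have changed at 30 min. The median size of a change, on the log2(value + 32) scale used for every change given here, was 0.168, and the median standard error was 0.232. This scale understates the changes of genes with low values.

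Only changes of at least 1.5 were in 1 direction. An increase of that size was seen at 9 probe sets and a decrease at 0. Between 1 and 1.5 there were 15 increases and 16 decreases. The constant added before the logarithm limits how far a dim probe set can fall, but not how far it can rise. How much this adds to the split at 1.5 was not tested. Among probe sets that differed by 0.5 to 1, 345 were higher and 302 lower, and 62.6% of them had groups that did not overlap. At 0.1 to 0.3 the share without overlap was 17.2%.

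**Figure D1:**
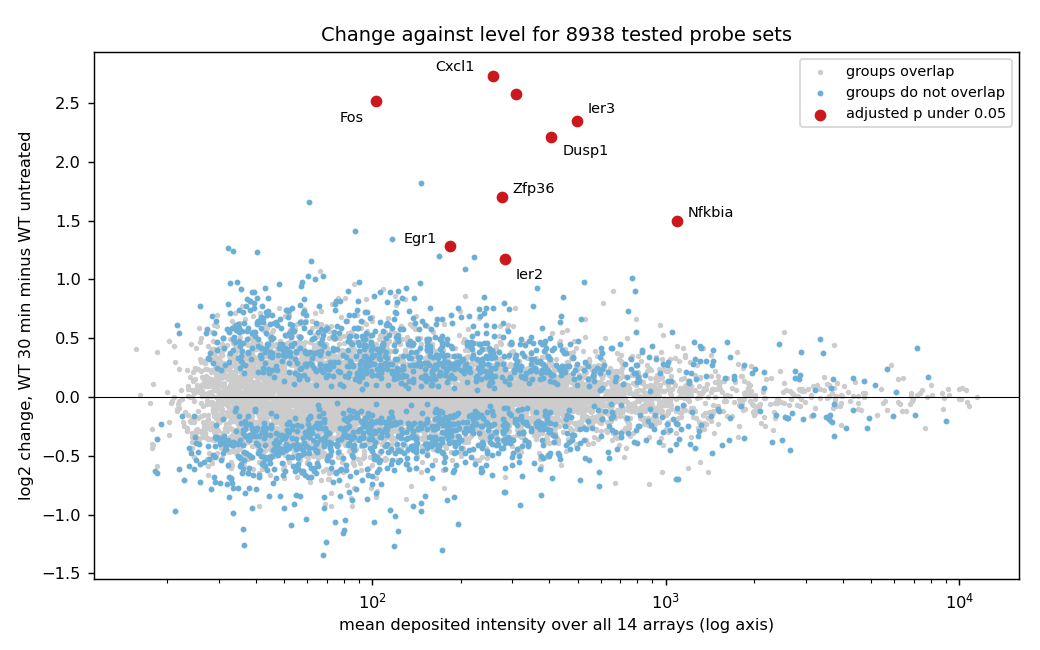
Each point is 1 of 8938 tested probe sets. The x axis is its mean deposited intensity over the 14 arrays (log axis), and the y axis is its log2 change, WT 30 min (2 arrays) minus WT untreated (3 arrays). Grey points have overlapping groups, blue points do not, and the 9 red points passed an adjusted p of 0.05, all with a rise between 1.17 and 2.73. The lower edge of the cloud ends at -1.34 with no called probe set.

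Fos, Egr1 and Ier2 are the called genes that encode nuclear regulators. Fos, the AP-1 subunit whose mRNA is the classic immediate-early transcript, read 49.0, 46.1 and 42.1 (deposited intensity) on the untreated arrays and 416.1 and 416.0 at 30 min. Both arrays of the irradiated group were close to each other and far above the untreated ones, a rise of 2.52 ± 0.21 (± is the standard error of the limma fit throughout; adjusted p = 9.6e-05), or 5.76-fold. The zinc-finger factor Egr1, which binds GC-rich promoters, read 141.5, 146.1 and 135.1 untreated and 367.5 and 415.4 at 30 min, a rise of 1.28 ± 0.16 (adjusted p = 0.00331 by limma). Ier2, a small nuclear protein that acts in transcription, read 259.5, 220.2 and 271.6 untreated and 551.1 and 665.0 at 30 min, a rise of 1.17 ± 0.15 (adjusted p = 0.00548 by limma). None of these 3 groups overlapped. The calls of Egr1 and Ier2 rested on the second irradiated array: without WT 30 min B their adjusted p was 0.0971 and 0.174 by limma. They also ended when only the 5 compared arrays were fitted, with an adjusted p of 0.125 for Egr1 and 0.286 for Ier2, and the Ier2 call ended in 2 further alternatives.

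Dusp1, Zfp36 and Nfkbia are the called genes whose products limit the signals that induce them. Dusp1, the phosphatase that inactivates p38, JNK and ERK in the nucleus, read 227.9, 198.2 and 246.9 untreated and 1211.2 and 1142.0 at 30 min. Its rise was 2.21 ± 0.19 (adjusted p = 9.6e-05 by limma), 4.62-fold, with no untreated array near the irradiated pair. Nfkbia encodes IkB-alpha, which holds NF-kB in the cytoplasm and is resynthesised when NF-kB reaches the nucleus. It read 536.8, 622.0 and 505.7 untreated and 1504.3 and 1929.9 at 30 min, a rise of 1.5 ± 0.16 (adjusted p = 0.000751 by limma). The second Nfkbia probe set was also higher on both irradiated arrays, at 0.98 ± 0.19, and did not pass (adjusted p = 0.175 by limma). Zfp36, or tristetraprolin, binds AU-rich elements of cytokine and immediate-early mRNAs and brings about their decay. It read 120.1, 211.8 and 224.0 untreated and 876.7 and 487.6 at 30 min, so the irradiated arrays differed from each other more than for any other called gene. Its rise of 1.7 ± 0.27 (adjusted p = 0.0288 by limma) was the least stable call and ended in 6 of 14 alternative settings (adjusted p up to 0.481 by limma). It also ended when 1 array was removed in 9 of 14 cases (up to 0.375), namely WT untreated A and B, WT 30 min A, WT 120 min A and B, KO untreated A, B and C, and KO 30 min B.

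Ier3 and Cxcl1 complete the called genes. Ier3, an early-response gene of both NF-kB and p53 whose product affects survival and ERK signalling, had the smallest p of all tested probe sets. It read 221.3, 215.4 and 299.1 untreated and 1469.3 and 1329.8 at 30 min, a rise of 2.35 ± 0.18 (adjusted p = 7.98e-05 by limma). Cxcl1, the chemokine that draws neutrophils through the receptor Cxcr2, had the largest rise. It read 31.5, 59.1 and 49.3 untreated and 391.6 and 597.6 at 30 min, 2.73 ± 0.29 higher (adjusted p = 0.000751 by limma). Its second probe set read 87.7, 45.0 and 28.8 untreated and 426.9 and 517.5 at 30 min, 2.58 ± 0.32 higher (adjusted p = 0.00371 by limma). Both probe sets of the chemokine thus gave the same picture. Ier3, Fos, Dusp1 and the first Cxcl1 probe set kept their calls in all 14 alternative settings and all 14 fits without 1 array. The second Cxcl1 probe set lost its call without WT 30 min B (adjusted p = 0.12 by limma) and with the B cell marker mean as a covariate (0.0824), and Nfkbia lost it only in the fit of the 5 compared arrays (0.125).

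**Figure D2:**
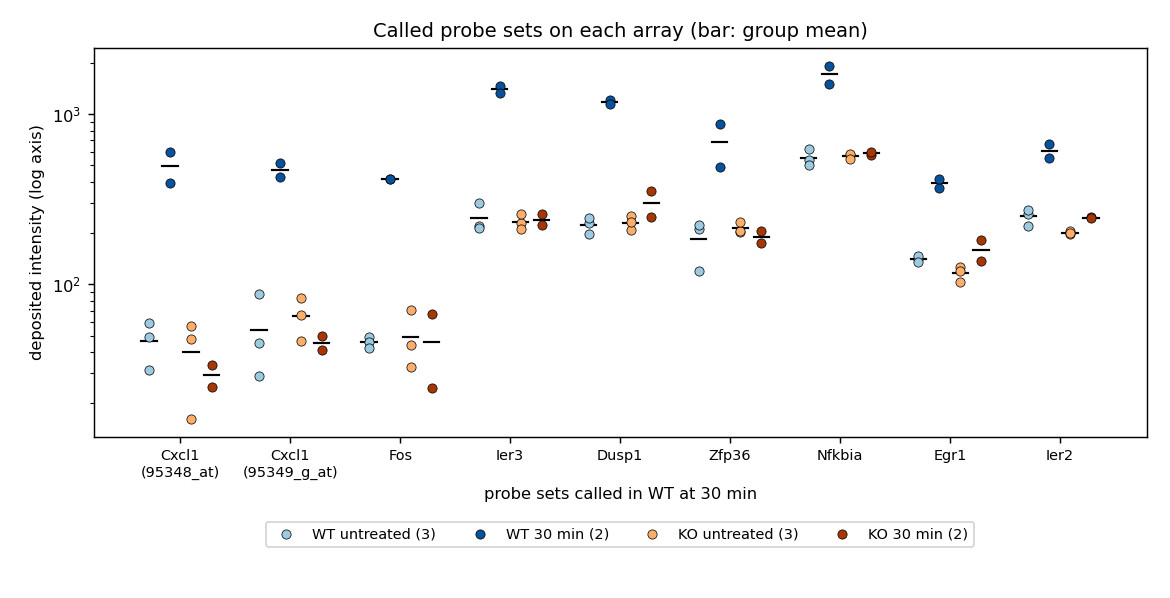
Deposited intensity (log axis) of the 9 called probe sets on each array of WT untreated (3, light blue), WT 30 min (2, dark blue), KO untreated (3, light orange) and KO 30 min (2, brown). Each point is 1 array and each bar a group mean. The WT 30 min points of every probe set lie above all other points, from 367.5 for Egr1 to 1929.9 for Nfkbia, while the KO 30 min points lie near or among the untreated ones.

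Atm was read by 1 dim probe set, at 54.8, 34.5 and 8.1 in untreated WT, at 44, 7.5 and 24 in untreated KO and at 7.5 and 11.8 in KO at 30 min. Whether it lies in the disrupted stretch of the gene is unknown, so it checks nothing about the genotype labels. In tissue lacking Atm the same comparison at 30 min called 0 of the 8938 probe sets (0%) by limma, while 344 were higher and 405 lower at an unadjusted p under 0.05. Both counts were above those of WT, 224 (2.51%) and 225 (2.52%), so 0 calls do not show that KO was unchanged. The 2 KO arrays at 30 min correlated at 0.913, the lowest value within any group. The count of 0 became 240 without KO 30 min B, a fit in which the lone KO array is assumed to vary like the other groups. The test of the difference itself, the KO response minus the WT response, called 7 probe sets (0.0783%), and 6 of them belong to the WT genes above. The 7 became 28 without KO 30 min B and 2 to 4 without any of 7 other arrays. Ier3 differed by -2.31 ± 0.25 and Fos by -2.63 ± 0.29 (adjusted p = 0.00388 for both by limma). Dusp1 differed by -1.87 ± 0.26 and Cxcl1 by -2.89 ± 0.40 at its first probe set (adjusted p = 0.0209 for both by limma), and Nfkbia by -1.44 ± 0.22 (0.0393). For these genes the KO changes were 0.04, -0.1, 0.34, -0.16 and 0.07. The difference held for Fos and Ier3 in all 12 alternative settings and all 14 removals of 1 array. For the first Cxcl1 probe set it held in 8 and 9 of these, for Dusp1 in 9 and 7, for the second Cxcl1 probe set in 5 and 4, and for Nfkbia in 5 and 2. Zfp36 had a WT-to-KO gap of similar size, -1.84 ± 0.38, that did not pass (adjusted p = 0.267 by limma). For Egr1 (-0.92 ± 0.22, adjusted p = 0.461 by limma) and Ier2 (-0.92 ± 0.22, 0.443) a difference between the genotypes was not shown, and their KO values were 0.37 ± 0.16 and 0.24 ± 0.15. The seventh, Barx1, a homeobox gene read by a probe set that may match several sequences, stood at -0.68 in WT and 1.23 in KO; it was not called in either genotype alone and is named after its values were seen.

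The 8 genes were also read at 120 min against the same untreated arrays, so both times share their controls and are set side by side only. In that comparison 0.515% of probe sets were called. Fos stood at 2.52 at 30 min and at 0.45 at 120 min, Egr1 at 1.28 and 0.42, Ier2 at 1.17 and 0.16, and Zfp36 at 1.7 and 0.65, with none of the 4 called at 120 min. Ier3 stood at 2.35 and 1.56 and Dusp1 at 2.21 and 1.13, called at both times. Nfkbia stood at 1.5 and 2.42 and Cxcl1 at 2.73 and 3.84, again called at both. The transcription factor and decay factor genes were thus nearer the untreated level at the later time, while the values of the NF-kB inhibitor and the chemokine were higher.

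The AP-1 list, which includes Fos, had the highest median of the 30 pathway lists. Of 10 tested members, only Fos was called, 5 with Fos among them had both irradiated arrays above all untreated ones (50%) and 1 had both below (10%). Over all probe sets these shares were 9.83% and 9.88%, and each count of separated genes in the lists that follow is read against them. The median change of the AP-1 list was 0.642, against 0.002 over 6534 genes. It stayed between 0.486 and 0.943 in the 28 alternative fits. Junb, which restrains and partners Jun, read 197.3, 126.3 and 111.3 untreated and 288.6 and 466.9 at 30 min by the brighter of its probe sets, which stands for it in the list, at 1.19 ± 0.27 (adjusted p = 0.325 by limma). The dimmer one read 26.3, 103.2 and 77.2 and then 256.9 and 335.8, at 1.82 ± 0.38 (adjusted p = 0.236 by limma). Both probe sets had separated groups and neither passed. Atf3, a stress-induced repressor that binds the cAMP response element, read 70.4, 82.5 and 88.6 and then 199.4 and 309.5, at 1.34 ± 0.25 (adjusted p = 0.119 by limma). Its promoter window also holds 1 TGACGT. Jun, the main partner of Fos, read 63.1, 88.2 and 90.6 and then 131.2 and 203.0, at 0.82 ± 0.2 (adjusted p = 0.465 by limma). Batf, an AP-1 factor of lymphocytes, stood at 0.63 ± 0.37, also without overlap.

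Other AP-1 members did not follow. Fosb, a close relative of Fos, read 166.4, 130.9 and 72.1 untreated and 147.0 and 116.0 at 30 min, so its groups overlapped. Fosl2 stood at -0.31 ± 0.26 and the small Maf factor Mafg at -0.11 ± 0.17, the latter with both irradiated arrays below. Mafk stood at 0.65 ± 0.29 with overlapping groups. In KO the median of the list was 0.021 and Jun stood at 0.3. The probe sets of Junb lay on opposite sides there, the brighter at -0.16 ± 0.27 and the dimmer at 0.83 ± 0.38. The difference between genotypes did not pass for Jun (adjusted p = 0.868 by limma) or for Junb (0.74 by the brighter and 0.868 by the dimmer probe set).

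The list of other nuclear early genes held 24 tested members, of which 3 were called (Ier3, Egr1 and Ier2), 10 had both irradiated arrays above (41.7%, against 9.83% of all probe sets) and 2 had both below (8.33%, against 9.88%). Its median was 0.217. Btg2, an antiproliferative gene induced by p53 and by growth factors, read 304.1, 696.4 and 577.7 untreated and 930.4 and 1204.2 at 30 min, at 1.01 ± 0.3 (adjusted p = 0.824 by limma). The gap between the highest untreated and lowest irradiated array was small beside the spread of the untreated ones. Gadd45a, a growth arrest gene that binds PCNA, was tighter, with 218.8, 181.0 and 205.5 untreated and 364.0 and 417.6 at 30 min, at 0.85 ± 0.32 (adjusted p = 0.93 by limma). Egr2 stood at 0.56 ± 0.23, the Krüppel-like factors Klf10 and Klf6 at 0.48 ± 0.22 and 0.46 ± 0.22, and Plk2, a p53-responsive kinase, at 0.41 ± 0.17. These 4 also had groups that did not overlap as normalized. In deposited intensity Egr2 did overlap, with 63.9 on WT 30 min A against 64.4 on WT untreated A. Klf6 did too, with 249 on WT 30 min A against 251.7 on WT untreated C. Not every early gene was higher: Nr4a1, an orphan receptor usually induced with Fos, read 387.3, 380.6 and 413.4 and then 428.0 and 261.2, on either side of the untreated range. Myc stood at -0.41 ± 0.22 and Rgs2 at -0.26 ± 0.24.

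Negative regulators of MAP kinase signalling did not move as a group with Dusp1. Of 9 tested phosphatases and Sprouty inhibitors, 1 was called, 2 had both irradiated arrays above and 3 had both below, with a median of 0.078. Errfi1, a feedback inhibitor of EGF receptors, read 394.9, 507.7 and 423.4 and then 559.9 and 605.9, at 0.37 ± 0.19, and its second probe set stood at 0.36 ± 0.27. Spry4 was on the other side, with 173.5, 167.0 and 127.4 untreated and 92.1 and 96.4 at 30 min, at -0.54 ± 0.28. Among 22 MAP kinases and their upstream kinases, 0 were called and 2 lay above and 2 below without overlap. Map3k8, the kinase Tpl2 that feeds NF-kB signals into the ERK pathway, stood at 0.64 ± 0.23, and the JNK gene Mapk9 at 0.53 ± 0.24, while a second Map3k8 probe set stood at -0.32 ± 0.27. Map2k1, which encodes the ERK kinase MEK1, stood at -0.48 ± 0.24. Of 10 tested factors of AU-rich mRNA binding and decay only Zfp36 was called, the median was -0.077, and its relative Zfp36l1 read 410.2, 289.0 and 430.2 and then 265.7 and 302.1.

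NF-kB inhibitors and targets were higher in part. Of 11 tested subunits and inhibitors, Nfkbia was called, 4 had both irradiated arrays above (36.4%, against 9.83% of all probe sets) and 0 had both below (0%, against 9.88%). The median of 0.103 differed in sign between the irradiated arrays, at 0.24 on WT 30 min A and -0.184 on B. The 4 were Nfkbia, Tnfaip3, Nfkbiz and Nfkbib, all genes of IkB proteins or of A20. Nfkbib was separated only as normalized, by 0.01, since it read 177.5, 182.5 and 163.9 untreated and 227 and 177.2 at 30 min. Tnfaip3, which encodes the deubiquitinase A20 that ends signalling to NF-kB, read 23.6, 2.8 and 31.7 untreated and 69.0 and 54.7 at 30 min, at 0.96 ± 0.23 (adjusted p = 0.456 by limma). With values below 32 set to 32 in place of the added 32 it stood at 0.98 and passed (adjusted p = 0.0454 by limma). Nfkbiz, a nuclear IkB protein, read 65.1, 60.2 and 66.9 and then 119.7 and 135.5, at 0.74 ± 0.24. The subunit genes Relb and Nfkb2 stood at -0.31 ± 0.28 and -0.4 ± 0.28 with overlapping groups. At 120 min Relb stood at 2.14 (adjusted p = 0.00272 by limma).

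Of 22 tested NF-kB targets, Cxcl1 was called, 4 had both irradiated arrays above and 3 had both below, and the median was 0.056. Cxcl2, the sister chemokine of Cxcl1, read 22.4, 5.5 and 1.9 untreated and 64 and 56.9 at 30 min, at 1.24 ± 0.31 (adjusted p = 0.474 by limma). Birc3, an inhibitor of apoptosis, read 45.2, 30.0 and 32.8 and then 68.5 and 105.4, at 0.82 ± 0.27, and the interferon regulatory factor Irf1 read 241.2, 201.0 and 175.2 and then 329.3 and 305.0, at 0.56 ± 0.19. None of these groups overlapped. The adhesion molecule Icam1 read 39.3, 63.2 and 44.1 and then 53.5 and 46.4, at 0.07 ± 0.22, and stood at 2.1 at 120 min. Cd14 stood at 0.48 ± 0.24 with overlap at 30 min and at 2.1 at 120 min. Vcam1 and Traf2 stood at -0.38 ± 0.2 and -0.48 ± 0.32. None of 19 tested receptors and adaptors that signal to NF-kB was called, and 2 lay above (10.5%, against 9.83% of all probe sets) and 0 below without overlap. These 2, Il1r1 and Traf6, were separated only as normalized, each by 0.01, and overlapped in deposited intensity.

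None of the listed p53 targets was called at 30 min; Ier3, which p53 also regulates, is in the list of nuclear early genes instead. Of 22 tested, 5 had both irradiated arrays above (22.7%, against 9.83% of all probe sets) and 1 both below, 17 of 22 changes were positive, and the median was 0.166. It was 0.095 without WT 30 min A and 0.007 with the B cell marker mean as a covariate. The 5 were Btg2, Gadd45a, Cdkn1a, Ercc5 and Plk2. Cdkn1a, which encodes the cell cycle inhibitor p21, read 52.0, 32.3 and 7.1 untreated and 94.2 and 50.1 at 30 min by 1 probe set, as normalized just without overlap, at 0.81 ± 0.26 (adjusted p = 0.828 by limma). Its other probe set stood at -0.23 ± 0.28. The repair nuclease Ercc5 read 14.5, 44.7 and 58.7 and then 73.1 and 60.6. Mdm2, the ubiquitin ligase of p53, read 82.2, 207.4 and 140.1 and then 227.4 and 97.5, a spread that covered the untreated range, and Ccng1 stood at 0.28 ± 0.23 with overlap. At 120 min Cdkn1a stood at 2.59 (adjusted p = 0.00044 by limma) and Mdm2 at 1.07 (0.363). Gtse1, a G2 gene that restrains p53, was the member below at -0.43 ± 0.34.

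The genes that detect breaks showed no call among 22 tested, with 2 above and 2 below without overlap and a median of -0.073. H2ax, the histone variant that Atm phosphorylates beside a break, read 238.1, 207.9 and 147.7 untreated and 114.8 and 117.9 at 30 min, at -0.6 ± 0.2 (adjusted p = 0.828 by limma). Nbn, part of the complex that brings Atm to breaks, stood at 0.33 ± 0.29, and Xrcc5, the Ku80 subunit, at 0.59 ± 0.26 on values of at most 57.9. Atm itself read 5.5 and 34.2 at 30 min, within or below its untreated values. Of 27 tested DNA repair enzymes, 0 were called, 0 lay above and 2 below. Among 26 apoptosis regulators 0 were called, with 4 above and 5 below: the inhibitor Xiap stood at 0.67 ± 0.25 by 1 probe set and at -0.29 ± 0.25 by another, while the effectors Bak1 and Bok stood at -0.48 ± 0.22 and -0.51 ± 0.22. Pdcd4, a translation inhibitor, read 933.0, 904.0 and 785.8 and then 639.1 and 751.3.

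Other stress and metabolic groups held no called gene of their own. Among pathway lists, hypoxia and glycolysis genes came after the AP-1 and nuclear early genes in the share above without overlap, 7 of 18 (38.9%, against 9.83% of all probe sets), with 1 below (5.56%, against 9.88%) and a median of 0.137, and 0 of them reached an unadjusted p under 0.05 by limma. Vegfa, the endothelial growth factor, read 216.6, 215.3 and 237.9 untreated and 303.0 and 331.5 at 30 min, and the glucose transporter Slc2a1 read 26.7, 53.4 and 78.0 and then 81.3 and 79.0. The hexokinase Hk2 was on the other side, with 316.4, 274.2 and 288.8 and then 170.5 and 239.5. Their differences were 0.45 ± 0.25, 0.51 ± 0.25 and -0.46 ± 0.23. Among 26 heat shock proteins and chaperones, 5 lay above and 2 below, led by the testis-type Hsp70 gene Hspa1l at 1.03 ± 0.42 and the inducible Hspa1b at 0.58 ± 0.21. The chaperonin subunits Cct3 and Cct8 stood on opposite sides, at 0.49 ± 0.17 and -0.45 ± 0.23. Of 21 genes of the unfolded protein and amino acid responses, 3 lay above and 3 below, with Pdia3, a disulfide isomerase, at -0.67 ± 0.2.

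Glucocorticoid-responsive genes were examined because handling and exposure can raise these hormones. Of 22 tested, 2 were called, Dusp1 and Nfkbia, which are also targets of MAP kinases and NF-kB, and 4 lay above and 2 below. Cebpd, a transcription factor of acute inflammation, read 334.4, 351.7 and 305.3 untreated and 480.8 and 608.9 at 30 min, at 0.64 ± 0.17 (adjusted p = 0.585 by limma). It stood at 0 in KO, and the difference did not pass (adjusted p = 0.868 by limma). The 2 members below were Pdk4 and Angptl4. Pdk4, which shuts glucose out of oxidation, read 721.5, 840.6 and 419.7 and then 393.0 and 350.5, at -0.76 ± 0.35 (adjusted p = 0.975 by limma). Angptl4, an inhibitor of lipoprotein lipase, stood at -0.84 ± 0.24 by 1 probe set (adjusted p = 0.776 by limma) and on the other side, at 0.09 and 0.31, by its 2 others. The median of the list was 0.161, and it ran from -0.042 to 0.209 in the alternative fits.

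The remaining pathway lists stayed near the background. Of 30 pathway lists, 27 had a median within the interquartile range of all genes (-0.16 to 0.165), and the 3 above it were the AP-1, nuclear early and p53 lists. The p53 median of 0.166 lay just over the edge of that range and ran from 0.007 to 0.212 in the 28 alternative fits, whereas the nuclear early median ran from 0.174 to 0.329. The medians that kept their sign in all 28 were those of the AP-1, nuclear early, p53, hypoxia, clock, proteasome, transcription elongation and NF-kB receptor lists, and every other pathway median changed sign in at least 1. Lists without any called member numbered 23 of 30, and 0 lists held a called fall. Proteasome subunits had a median of 0.136 with 5 above and 2 below, led by Psmd1 at 0.76 ± 0.31, while Psmd11 stood at -0.41 ± 0.16. Clock genes had the lowest median, -0.155, with 0 above and 2 below (Clock and Cry1). Interferon-stimulated genes divided 3 to 4, with the GTPase Irgm1 at -0.57 ± 0.18. Oxidative phosphorylation subunits divided 3 to 4 of 41 and cytosolic ribosomal proteins 3 to 4 of 25. In replication and G1/S genes 4 of 32 lay above and 1 below, and in G2/M genes 1 of 22 lay above and 0 below. For transcription elongation genes the division was 3 to 0 of 21, for Notch and Wnt genes 0 to 4 of 25 and for JAK-STAT genes 1 to 3 of 26.

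**Figure D3:**
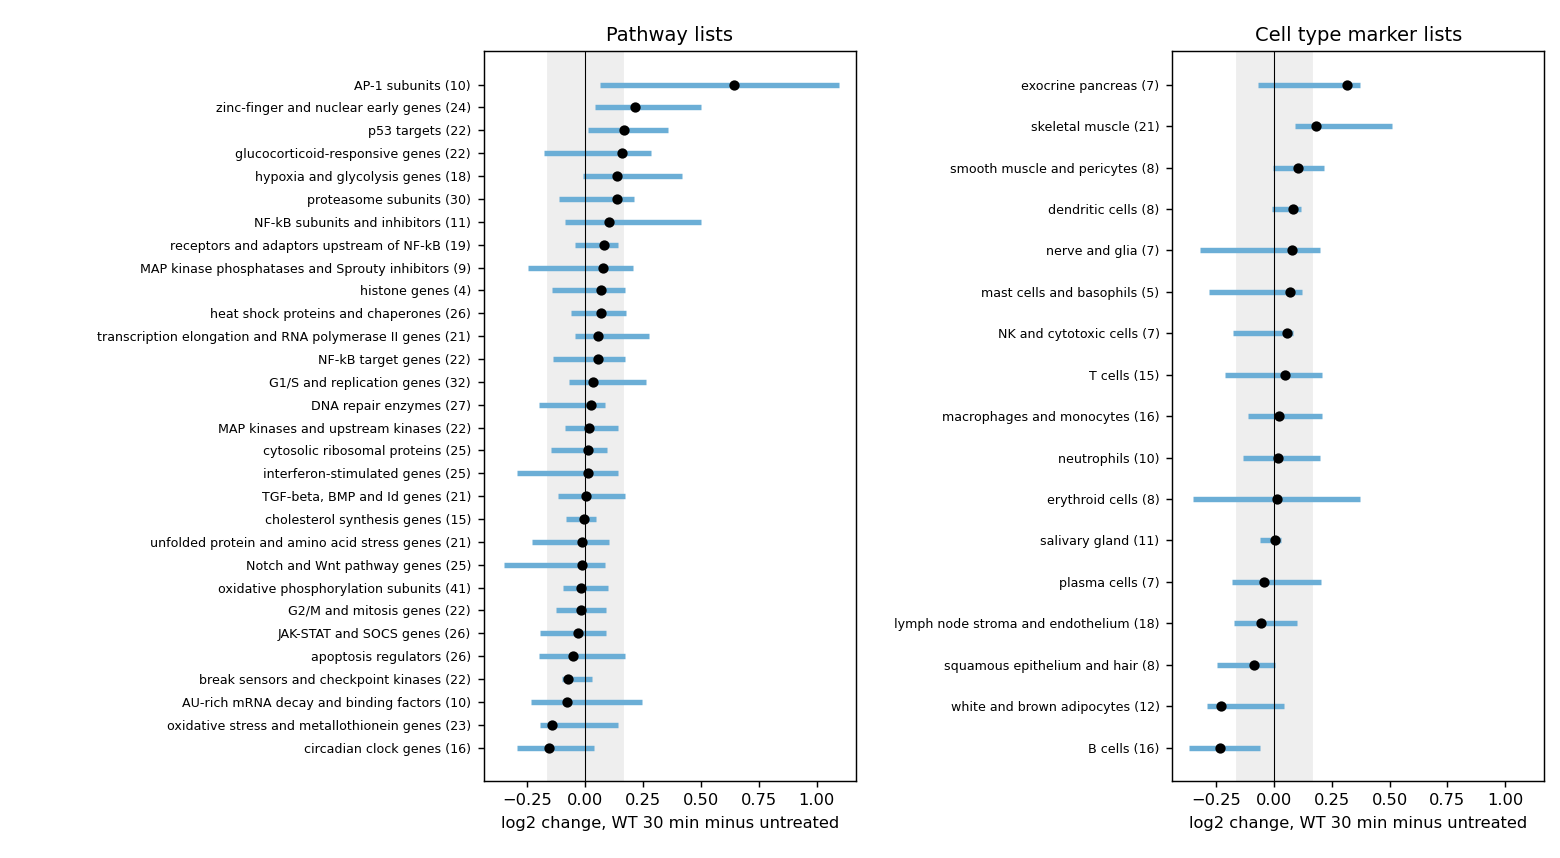
Log2 change at 30 min in WT (2 irradiated minus 3 untreated arrays) for 30 pathway lists (left) and 17 cell type marker lists (right), with the number of tested genes in brackets. Points are medians over the genes of a list, blue bars span its interquartile range, and the grey band spans the interquartile range of all 6534 genes (-0.16 to 0.165). The AP-1 list stands farthest out at 0.642, and most other medians lie inside the band.

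Beyond the called genes, 5 others were among the 12 largest rises with groups that did not overlap and an unadjusted p under 0.05. Besides Junb and Atf3 these were Glra1, Pgs1 and Sel1l2, and their adjusted p ran from 0.107 to 0.731. Glra1, a glycine receptor subunit, came next after the called probe sets by p, with 54.8, 33.7 and 20.0 untreated and 174.3 and 115.4 at 30 min, at 1.41 ± 0.26 (adjusted p = 0.107 by limma). It passed when KO 120 min A or B was left out (0.0413 and 0.0416 by limma). Pgs1, an enzyme of cardiolipin synthesis, read 25.7, 16.3 and 9.3 and then 80.5 and 164.3, and Sel1l2 read 23.6, 16 and 5 and then 69.6 and 80.4. Both were below the 40th percentile of the array on all 3 untreated arrays. Untreated KO read 94.8, 118.6 and 45.2 for Pgs1 and 74.9, 107.6 and 84.7 for Glra1, in each case above every untreated WT array. For Sel1l2 it read 18.1, 12.4 and 65.1.

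The 12 largest decreases ran from -1.34 to -1.05, and none passed (adjusted p from 0.278 to 0.951 by limma). In 6 of the 12 both irradiated arrays were below the 40th percentile of their array. The serine protease Prss30 had the largest, with 48.6, 119.4 and 174.4 untreated and 18.6 and 20.5 at 30 min, at -1.34 ± 0.48. A probe set of Actb that may match several actin sequences read 196.2, 371.1 and 204.6 and then 55.4 and 111.1, at -1.3 ± 0.28, and the other Actb probe set stood at -0.36 ± 0.23. The epidermal lipoxygenase Aloxe3 read 223.9, 188.8 and 137.7 and then 108.8 and 20.2, at -1.27 ± 0.33, and passed without WT 30 min A (-1.96, adjusted p = 0.0266 by limma). Tnfrsf21, the death receptor DR6, read 140.3, 83.6 and 87.1 and then 42.5 and 15.4, at -1.13 ± 0.32, and its KO value was -0.8. That KO value came mainly from 1 array, with 111, 99.8 and 90.5 untreated and 18.2 and 80.3 at 30 min. Gpr137b, a lysosomal membrane protein, stood at -1.09 ± 0.36 and passed without WT untreated C, its only low untreated array at 19.8 (-1.54, adjusted p = 0.0423 by limma).

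The other decreases were of varied function, and second probe sets did not always follow. Slc19a1, the reduced folate carrier, stood at -1.05 ± 0.28 by 1 probe set and at 0.96 ± 0.38 by another. Lsr, a lipoprotein receptor of tight junctions, stood at -1.26 ± 0.43 and 0.18 ± 0.16. Strn4 stood at -1.23, Gstm3 at -1.14, Pdc at -1.12, Dpcd at -1.08 and the dynein light chain Dnal4 at -1.06. Dpcd read 277.9, 298.4 and 248.7 untreated and 71.3 and 167.0 at 30 min, lower on both arrays though far apart.

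Small but separated changes were the 10 higher and 10 lower genes with the smallest p among those that differed by less than 1. The higher ones lay between 0.62 and 0.96 (adjusted p 0.456 to 0.776 by limma) and led with Tnfaip3, Jun and Cebpd. In 5 of the 10 all untreated arrays were below the 40th percentile of their array. Mrps31, a mitochondrial ribosomal protein, had close replicates, 127.8, 126.5 and 132.6 untreated and 216.9 and 221.9 at 30 min, at 0.66 ± 0.17. Gnai3, an inhibitory G protein subunit, was among the brighter ones, with 331.5, 404.3 and 392.9 and then 593.4 and 649.0, at 0.66 ± 0.19. Prkar1b, a regulatory subunit of protein kinase A, read 62.0, 82.7 and 107.6 and then 138.4 and 208.5. Trim13, a ubiquitin ligase of the endoplasmic reticulum, stood at 0.93 ± 0.26 in WT and 0.84 in KO, the closest match between genotypes among these 10. The coactivator Ncoa2 stood at 0.76 in WT and 0.51 in KO, the potassium channel Kcnj11 at 0.82 and 0.44, and Zfp277 at 0.62 and -0.01. Untreated KO already read near irradiated WT for Zfp277 (56.7, 67.5 and 42.8 against 56.4 and 66.3). Ncoa2 was alike (44.6, 59.6 and 41.3 against 54.7 and 56.9).

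The lower ones lay between -0.97 and -0.64 (adjusted p 0.124 to 0.776 by limma), and in 5 of the 10 both irradiated arrays were below the 40th percentile. Slc39a8, a zinc importer, had the smallest p among all decreases named, with 53.3, 59.3 and 40.8 untreated and 18.6 and 8.0 at 30 min, at -0.85 ± 0.16 (adjusted p = 0.124 by limma). Aoc3, the vascular adhesion protein VAP-1, read 114.9, 124.1 and 127.1 and then 43.5 and 56.6, at -0.87 ± 0.19. The osteoclast protease cathepsin K (Ctsk) read 254.4, 170.5 and 192.8 and then 86.0 and 84.9, at -0.97 ± 0.22. For Ctsk the irradiated pair was close together, and in each of these genes both irradiated arrays lay well below the untreated group. The brightest were the endocytic adaptor Epn1, at 1273.3, 1070.7 and 1177.0 and then 676.3 and 816.3 (-0.7 ± 0.16), and the ubiquitin ligase Rnf167, at 787.1, 686.0 and 871.6 and then 502.2 and 493.2 (-0.64 ± 0.18). Epn1 stood at 0.27 in KO and Rnf167 at 0.19, and the differences did not pass (adjusted p = 0.461 and 0.789 by limma). For Rnf167 the untreated KO arrays, at 447.5, 536.5 and 542.2, already read around the irradiated WT values. The dynamin gene Dnm1 stood at -0.82 ± 0.18 by 1 probe set and at 0.73 ± 0.34 by another. Matn2 stood at -0.78 and 0.01, the copper chaperone Ccs at -0.71, -0.26 and 0.21, and Celf2 at -0.77 and -0.1. Tet1, the DNA demethylase, stood at -0.97 in WT and at 0.65 in KO on values of at most 69.0 in WT. The KO value came mainly from 1 array, with 9.6, 8.2 and 10.7 untreated and 67.9 and 12 at 30 min. Untreated KO was thus already near irradiated WT, at 7.7 and 5.6.

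**Figure D4:**
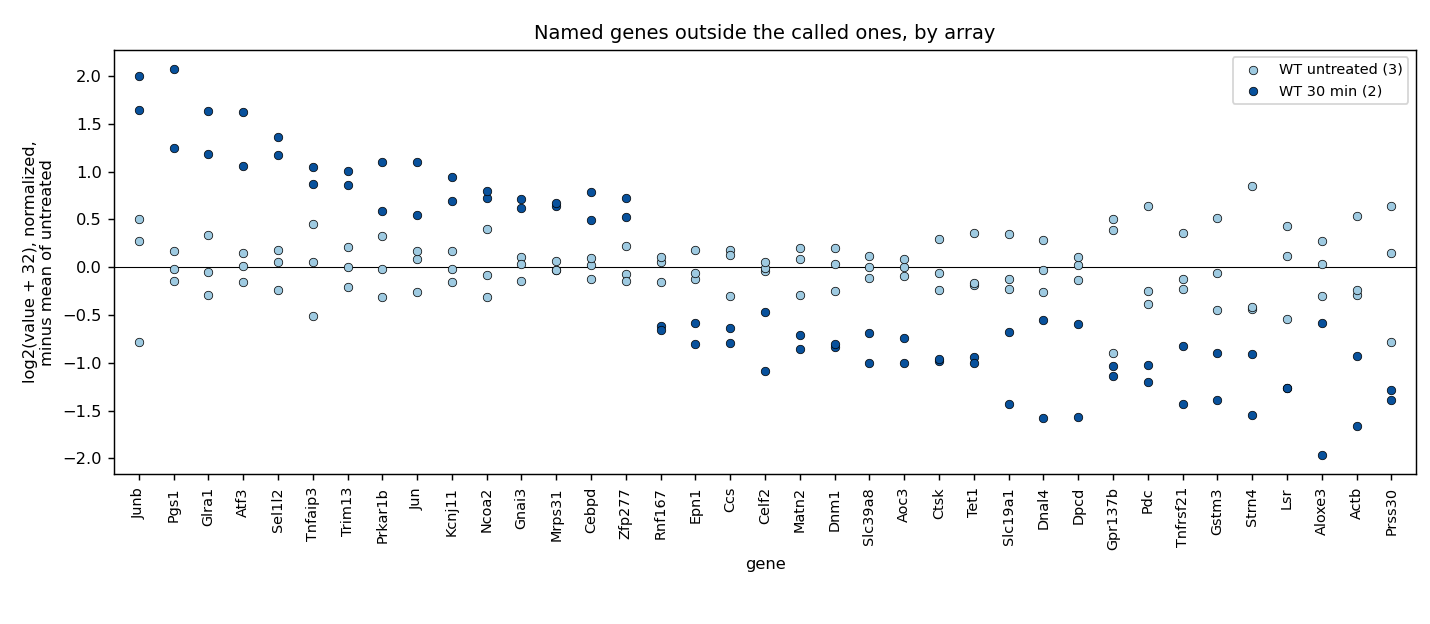
Log2(value + 32) after normalization, minus the mean of the 3 untreated arrays, for the named genes outside the called ones. Light points are WT untreated arrays (3) and dark points WT 30 min arrays (2). Within each gene the dark points lie outside the range of the light ones, which is how the genes were chosen, and for several decreases, such as Aloxe3 and Dpcd, the 2 irradiated arrays stand far apart.

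Second probe sets of a gene did not enter its choice, except that the probe set of smallest p stood for the gene. Of the genes whose best probe set had separated groups and an unadjusted p under 0.05, 52 higher ones had 68 other tested probe sets, of which 37 had the same sign, 13 were also separated in that direction and 3 had an unadjusted p under 0.05. For 70 lower genes there were 89 others, of which 46 had the same sign, 8 were separated and 1 had an unadjusted p under 0.05. Both called genes with a second probe set, Cxcl1 and Nfkbia, had it higher and separated. In both directions the same-sign share was little above an even split. Over all probe sets 9.83% were separated above and 9.88% below. The separated share of second probe sets was thus higher than background for the higher genes and near it for the lower ones.

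The 205 probe sets that were higher in WT with separated groups and an unadjusted p under 0.05 had a median change of 0.651 in WT and 0.059 in KO. Of them, 57.1% were positive in KO, and 35 lay above and 15 below the KO untreated arrays without overlap. The 207 lower ones had medians of -0.566 in WT and -0.069 in KO, with 41.1% positive in KO and 28 above and 39 below. Over all tested probe sets the KO median was -0.01, 48.6% were positive, and 988 lay above and 1011 below. The sets were picked by their WT arrays, so their WT medians are large by choice. Smaller KO values would follow even without a difference between the genotypes. WT and KO share no arrays, and these counts are a description without a test.

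**Figure D5:**
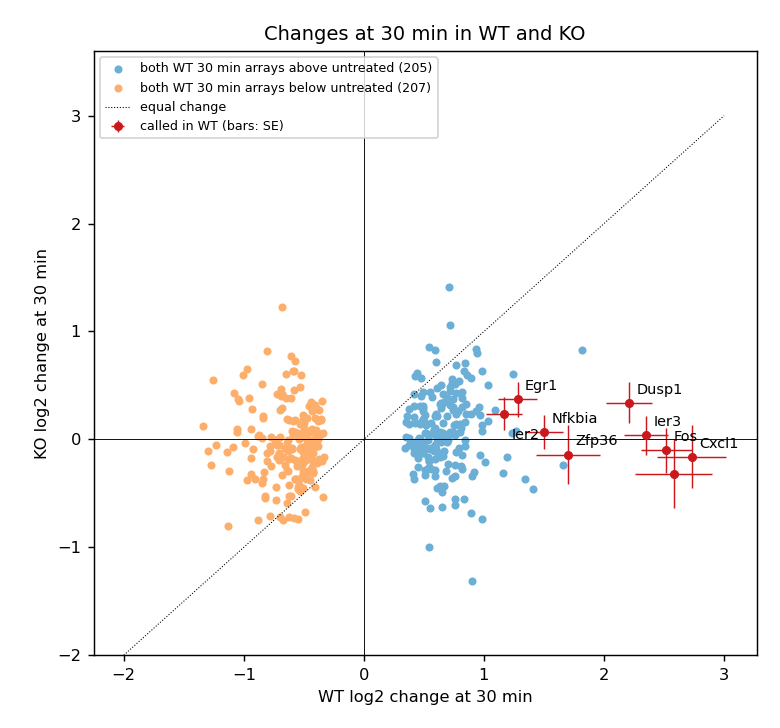
Log2 change at 30 min in WT (x axis) and KO (y axis), each 2 irradiated minus 3 untreated arrays, for the 205 higher (blue) and 207 lower (orange) probe sets of WT with separated groups and an unadjusted p under 0.05. Red points are the 9 called probe sets with their standard errors. The dotted line marks equal change, and the red points lie to its right with KO values from -0.32 to 0.37. Points were chosen by their WT change, so lying off the line is not by itself evidence of a genotype difference.

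The tissue itself was checked with cell type markers. The label names lymph node, yet salivary gland genes gave some of the brightest probe sets: the summed intensity of 11 of them was 76630.6 to 83942.4 untreated and 79457.9 to 102406 at 30 min. Lymph node genes were present: the summed 16 B cell markers read 2796.1 to 3487.7 and then 2377.3 to 2906.6, and Glycam1, a mucin of high endothelial venules, read 489.4, 427.2 and 360.7 and then 339.7 and 652.7. In bulk tissue, fewer cells of a type and less RNA per cell cannot be told apart. Summed levels overlapped between the groups for all 17 marker lists, 0 marker genes were called in either direction, and 13 lists had a median within the interquartile range of all genes.

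B cell markers had the lowest median, -0.233, with 5 of 16 below and 0 above without overlap. The shift was in 1 array: the median was -0.405 on WT 30 min A and -0.003 on WT 30 min B. The adaptor Blnk stood at -0.92 ± 0.37 by 1 probe set and at 0.07 ± 0.2 by another, the complement receptor Cr2 at -0.48 ± 0.2 and Cd22 at -0.3 ± 0.23. Of the T cell markers, Cd3e read 156.1, 155.3 and 134.5 and then 63.9 and 97.8, while the kinase Zap70 stood at 1.03 ± 0.46 by 1 probe set and at -0.39 and -0.23 by its others. Skeletal muscle markers had a median of 0.183, again from 1 array (0.55 on WT 30 min A and 0.01 on B), and adipocyte markers one of -0.228 (-0.231 on A and 0.068 on B). The 7 tested pancreatic markers had the highest median, 0.318, on dim probe sets such as Prss2 (33.8, 47.9 and 37.3, then 53.2 and 55.8). This too was in 1 array, with 0.023 on A and 0.36 on B, and with the stricter filter on dim probe sets the median was -0.068. The myelin gene Mbp stood at -0.66 ± 0.23 and 0 by its 2 probe sets, and the keratin Krt1 at -0.91 ± 0.31. Their part in the smaller changes listed above was not tested beyond fits with the B cell or the muscle marker mean as a covariate, in which 6 and 8 of the 9 called probe sets passed. RNA quality, read as the Gapdh signal at the 3′ over that at the 5′ end, was 0.851 and 0.89 at 30 min and 0.902 to 1.01 untreated. Both irradiated arrays were thus below all untreated ones. The same ratio for Actb was 1.33 and 1.43 at 30 min and 1.36 to 1.58 untreated, with overlap.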

How the data were processed

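The study deposited 1 intensity per probe set and array for 14 arrays, on a linear scale from 0 to 15198.3. No label or file header used here says how the authors made these intensities. Groups came from the sample titles. Values were taken as log2(value + 32) and quantile normalized over 12488 probe sets. Without the 66 controls, probe sets were tested if above their array's 40th percentile (38.3 to 55.3) on at least 2 arrays, which left 8938. Of these, 7960 had 1 gene in the platform annotation, 303 several and 675 none, and only the first were named.

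A model of 6 group means on all 14 arrays was fitted with limma 3.58.1 in R 4.3.3 (statmod 1.5.0), with 8 residual and 4.56 prior degrees of freedom. p-values were adjusted by Benjamini-Hochberg. Precision is limited by the number of arrays. The code was tested on simulated data.

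The genes and 47 lists were chosen with earlier results of these data known, so they are no independent evidence. Named genes are those called; the 12 largest rises and 12 largest falls with groups that do not overlap and an unadjusted p under 0.05; the 10 higher and 10 lower of smallest p under a change of 1; and up to 4 of a list by size of change, plus members needed for their role. A list member was read by its probe set of highest mean. Alternatives were the offset (16, 64 or a floor of 32), normalization, filter (none or the 60th percentile), arrays fitted, replicate block, array weights, a trended and robust fit, marker covariates and leaving out each array. Probe sets whose names end in _f, _s, _i, _r or _g before _at can match several sequences or have relaxed design rules.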

Additional observations from a re-analysis of the deposited data

Results flagged for a closer look

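The response at 30 min differed between the genotypes by the interaction test (KO response minus WT response, limma, adjusted over 8938 probe sets) for 6 probe sets of 5 genes that rose in WT. On the log2 scale the difference was -2.9 for the second and -2.89 for the first probe set of Cxcl1, -2.63 for Fos, -2.31 for Ier3, -1.87 for Dusp1 and -1.44 for Nfkbia. On the KO arrays at 30 min Fos read 66.5 and 24.6 against 44.1, 70.9 and 32.8 without treatment, Ier3 read 257.5 and 222.5 against 229.5, 259.6 and 212.1, and Nfkbia read 575.4 and 598.6 against 574.1, 579.5 and 542.3. Dusp1 read 351.8 and 248.7 against 251.9, 207.7 and 231.3. No cause was tested.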

How the results depend on the processing

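The 9 calls in WT at 30 min became 5, all higher, when only the 5 compared arrays were fitted, and 8 with the replicate block. The 7 calls of a different KO response became 4 with offset 16 or a floor of 32, 3 with the replicate block or array weights, and 2 with either marker covariate. The 46 calls at 120 min became 26 with the 7 WT arrays, 25 with the replicate block or the muscle covariate, and 1 with the B cell covariate. The letters were not used as pairs in the main fit, since no label says that they pair samples. Correlations of deviations between arrays of the same letter were -0.0287 and -0.101. They cannot decide it, because 2 irradiated arrays deviate from their mean in exactly opposite ways.

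Leaving out 1 array gave 6 to 10 calls in WT at 30 min, 6 to 10 higher and 0 to 2 lower (2 without WT 30 min A, 1 without WT untreated C), 873 to 2241 probe sets with both arrays above and 872 to 2252 with both below, 0 to 240 calls in KO at 30 min, 2 to 28 for the difference and 13 to 44 at 120 min. The 240 and the 28 came without KO 30 min B, the 13 without WT 120 min B (17 without A, and 30 and 23 without WT untreated A and B) and the 6 without WT 30 min B. The larger separated counts follow from comparing fewer arrays.

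Uncalled values changed sign with the B cell covariate for Mdm2 (-0.29), Ccng1 (-0.04) and Cd79a (0.26). Over the removals of 1 array they ran from -0.32 to 0.64 for Mdm2, -0.04 to 0.19 for Icam1, -0.11 to 0.34 for Fosb, -0.69 to 0.16 for Atm, -0.51 to 0.11 for Nr4a1 and -0.29 to 0.56 for Glycam1. The cause was not tested. With 2 irradiated arrays and a median standard error of 0.232, changes under 1 rarely pass.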
